A study of Homo sapiens with 4 samples.

Results

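Nuclear receptors are transcription factors that bind DNA and, for many of them, a small lipid-soluble ligand such as a steroid, a thyroid hormone, a retinoid, a bile acid or a fatty acid. The 46 nuclear receptor genes described here were taken by gene symbol from a list of the family. In Huh7, an established line of human liver cancer (hepatocellular carcinoma) cells, 37 of the 46 were measured, among 22395 measured genes in all. Where a gene has several probe sets, the brightest one on average stands for it. THRA and NR1D1 are covered only by probe sets that list both symbols and are given no value, and NR1H2, NR1H4, NR1I2, HNF4A, NR2F1, NR2F2 and NR0B1 were not analysed here. The results therefore do not speak to HNF4A or the bile acid receptor NR1H4, which are central receptors of liver cells.

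Cells were transfected with the plasmid pcFLAG (control, 2 arrays) or with pcFLAG-hSTYK1, which carries human STYK1, a receptor-like kinase (STYK1 group, 2 arrays), and both groups share the Huh7 background. The time after transfection, the share of cells that took up plasmid and whether replicates were separate cultures are not stated in the labels. The p-values below thus cover the spread between arrays, and that spread could be technical only. Total RNA was profiled on biotin-labelled Affymetrix whole-transcript arrays, and values are probe set signals on a log2 scale. The number of arrays limits the precision.

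Within the liver, these receptors divide the control of metabolism among them. PPARs respond to fatty acids, liver X receptors to oxysterols, thyroid hormone receptors to triiodothyronine and the glucocorticoid receptor to cortisol, and several bind DNA as partners of a retinoid X receptor. Others, such as the COUP-TF group, NR0B2 and the NR4A receptors, act without a known physiological ligand or without one being required. An array reports the RNA of a receptor and not its ligand, its place in the cell or its activity. In such bulk samples fewer expressing cells and less RNA per cell cannot be told apart.

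The label of the STYK1 group was borne out by STYK1 itself, which read 7.40 and 7.86 in STYK1 replicates 1 and 2 and 0.26 and 0.61 in control replicates 1 and 2. As a floor for background, each array was given the signal that 95% of 429 probe sets for olfactory receptors did not exceed, genes that liver cells are not known to use. It lay between 0.72 and 0.77 on the 4 arrays. All 9 hepatocyte and hepatoma markers lay above it on every array, including ALB at 10.42 to 10.60. The 6 measured endothelial markers were under it on all arrays, as were 3 of 6 immune markers, PTPRC among them. CD68 and CD14 lay above it on every array and NKG7 on 3 arrays. Of 6 fibroblast and stellate markers 4 were under the floor on every array, and COL1A1 and PDGFRB were above it on some. The marker signals summed over the list were 73.34 to 73.65 in the controls and 73.58 to 73.70 in the STYK1 arrays for hepatocytes. The same sums were 3.81 to 4.08 in the controls and 3.18 to 3.46 in the STYK1 arrays for fibroblasts and stellate cells. As 0 of these 6 markers lay above the floor on every array, these sums were mostly background. They cannot tell whether the groups differed in such cells, and the part of this difference in the results below was not tested. Of the 5 cholangiocyte markers, 3 lay above the floor, KRT19 and SOX9 among them, and KRT7 and CFTR did not. KRT19 read 3.36 and 3.31 on the control arrays and 3.04 and 3.13 on those with STYK1, and its part in the results was not tested.

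Of the 37 measured receptors, 21 lay above the floor on all 4 arrays, a share of 56.8% beside 43.6% of all 22395 genes, 6 on some arrays and 10 on none. Signals of different probe sets are not compared with each other, because probe sets differ in how strongly they respond to the same amount of RNA. The receptors above the floor on every array were THRB, RARA, RARB, PPARA, PPARD, PPARG, NR1D2, HNF4G, RXRA, RXRB, NR2C1, NR2C2, NR2F6, ESRRA, NR3C1, NR4A1, NR4A2, NR5A1, NR5A2, NR6A1 and NR0B2. RARG, NR1H3, VDR, NR1I3, NR2E1 and ESRRB were above it on 1 to 3 arrays. The 10 under it on every array were RORA, RORB, RXRG, NR2E3, ESR1, ESR2, ESRRG, NR3C2, PGR and NR4A3, with signals of 0.37 to 0.67. Thus of the steroid receptors measured, the glucocorticoid receptor NR3C1 was above background while both estrogen receptors, the mineralocorticoid receptor NR3C2 and the progesterone receptor PGR were not.

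**Figure D1:**
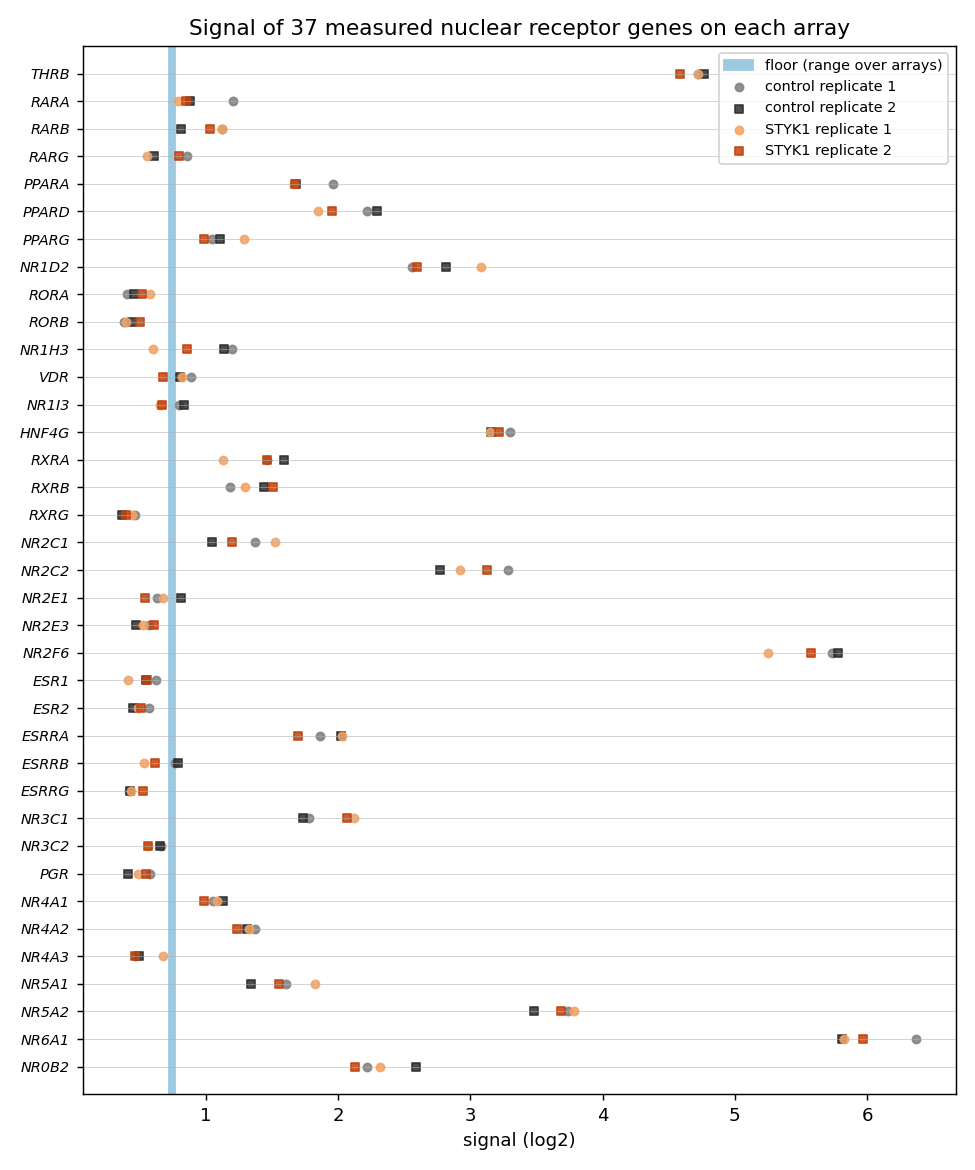
Signal (log2, x axis) of the 37 measured nuclear receptor genes (y axis) on each of the 4 arrays, with the range of the floor as a blue band. The points of a gene mostly lie close together whatever the group, 21 genes lie to the right of the band on every array, and 10 lie to its left.

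With STYK1 overexpressed, no nuclear receptor changed past the test. Over all 53617 probe sets 1 passed at an adjusted p under 0.05 (limma with Benjamini-Hochberg adjustment), a share of 0.00187%, and that one was STYK1, which no longer passed when any 1 array was left out or the replicate number was a block (0 probe sets). Of the 37 receptors 0 passed, with adjusted p-values of 0.98 to 1 (limma), and none differed by 2-fold. At an unadjusted p under 0.05 there were 3 receptors, 1 higher and 2 lower, against 3.72% of all genes (1.79% higher and 1.93% lower). The groups did not overlap for 12 receptors, 3 higher and 9 lower, a share of 32.4% against 32.9% of all genes (16.7% higher and 16.2% lower). The share of receptors with separated groups was thus close to that of all genes. The count at an unadjusted p under 0.05 fell to 0 when STYK1 replicate 1 was left out, rose to 5 when STYK1 replicate 2 was left out, and was 2 without either control (limma). Over the 37 receptors 15 differences were above 0 and 22 below it, with a median of −0.05, beside a median of 0.002 over all genes. The 21 receptors above the floor on every array had standard errors of 0.09 to 0.20 for the difference. None of the 9755 genes above the floor on every array passed (limma, lowest adjusted p = 0.497), with differences of −0.95 to 1.31. The adjusted test with 2 arrays against 2 therefore could not call receptor shifts of the sizes seen here.

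The 3 receptors with an unadjusted p under 0.05 were NR3C1, which read higher in the STYK1 arrays, and PPARD and NR1H3, which read lower. NR3C1 encodes the glucocorticoid receptor, which on binding cortisol moves to the nucleus and drives gluconeogenic and anti-inflammatory genes. It read 1.78 and 1.74 in control replicates 1 and 2 and 2.12 and 2.07 in STYK1 replicates 1 and 2. Both STYK1 arrays thus lay above both controls, by more than the arrays of a group differed from each other. A difference larger than the gap within either group was seen for 3 of the 21 receptors above the floor, NR3C1, PPARD and NR2F6. The share over all genes above the floor was 22%. For NR3C1 the difference was 0.33 with a standard error of 0.09 and a 95% interval of 0.11 to 0.56. This 1.26-fold difference in signal did not pass (limma, adjusted p = 0.979). Leaving out 1 array at a time gave differences of 0.31 to 0.36. Its relative NR3C2, the mineralocorticoid receptor, stayed under the floor.

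PPARD encodes the fatty acid receptor PPAR-delta, which is broadly expressed and drives fatty acid oxidation. It read 2.22 and 2.29 on the control arrays, against 1.85 and 1.95 on STYK1 replicates 1 and 2. Both STYK1 arrays lay below both controls, and the arrays of a group differed from each other by at most 0.11. The difference was −0.36 with a standard error of 0.09 and a 95% interval of −0.60 to −0.11 (limma, adjusted p = 0.979), or 1.28-fold lower. Without any 1 array it stayed between −0.41 and −0.30.

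NR1H3 encodes LXR-alpha, the oxysterol receptor that induces cholesterol export and lipogenesis genes and is known for its part in liver and macrophages. It read 1.20 and 1.14 on the control arrays, against 0.60 and 0.86 on STYK1 replicates 1 and 2. The controls lay above the floor, STYK1 replicate 1 under it and STYK1 replicate 2 just above it, so this receptor was read close to background. The signals as read differed by −0.44 (standard error 0.12; limma, adjusted p = 0.979), but the mean of the STYK1 arrays, 0.73, lay under the mean of their floors, 0.76, so the size of this difference is not well set. With the reading of STYK1 replicate 1 raised to its floor, NR1H3 was 1.29-fold higher in the controls. Without STYK1 replicate 1 the difference was −0.31.

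**Figure D2:**
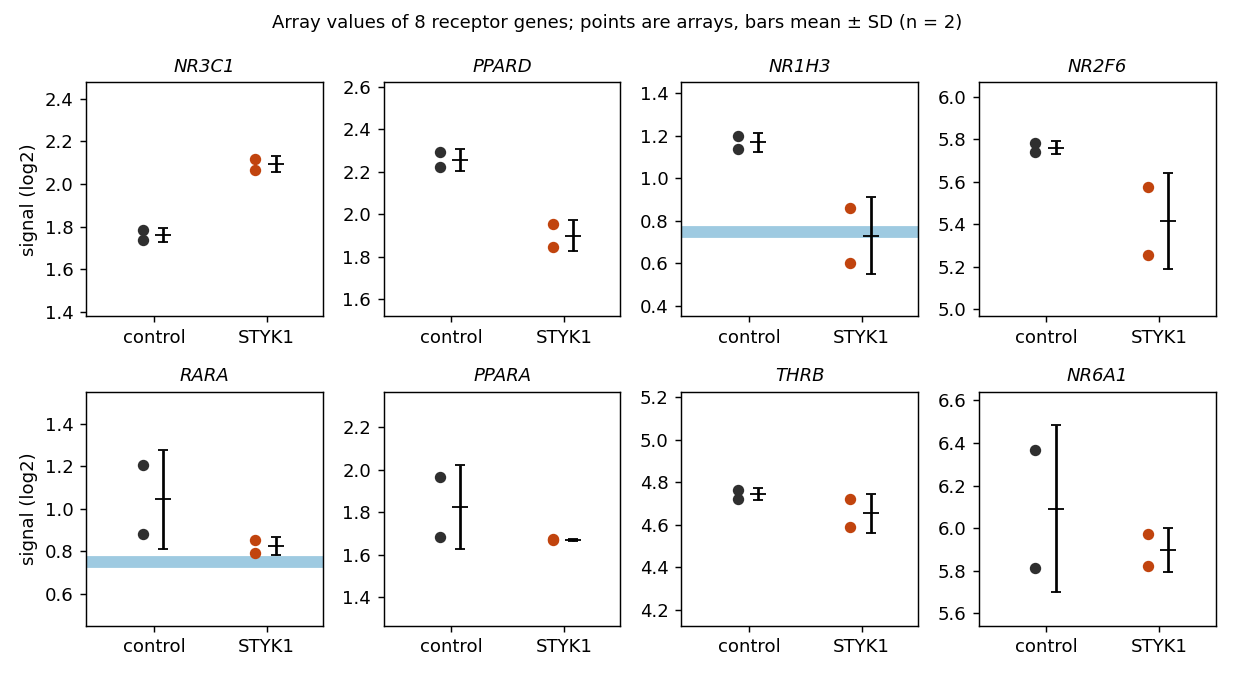
Signal (log2, y axis) of 8 receptor genes in control and STYK1 arrays, with each array as a point and the mean ± SD (n = 2) beside it. Every panel spans the same height, and the blue band is the floor. NR3C1, PPARD and NR1H3 show groups that do not overlap, while the 2 controls of NR6A1 lie farther apart than the group means. The groups of NR2F6, RARA, PPARA and THRB do not overlap either. Such a separation was seen for 12 of the 37 measured receptors and for 32.9% of all genes.

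These 3 genes had the smallest unadjusted p-values, so the DNA before the most upstream start site of each is shown, and it differs in composition. Each sequence holds the 250 bases before the most upstream RefSeq start site (GRCh38.p14), 5′ to 3′ on the gene's strand. Capitals mark matches, on both strands, to AGGTCA, the core motif that many nuclear receptors bind, or to the GC box, the motif of SP-type factors, spelled GGGCGG. The 2 motifs did not overlap in these windows. PPARD lies at chr6:35342308-35342557 on the + strand and has 1 start in the table, NR1H3 at chr11:47248050-47248299 on the + strand with 4 starts, and NR3C1 at chr5:143435513-143435762 on the − strand with 7 starts.
PPARD: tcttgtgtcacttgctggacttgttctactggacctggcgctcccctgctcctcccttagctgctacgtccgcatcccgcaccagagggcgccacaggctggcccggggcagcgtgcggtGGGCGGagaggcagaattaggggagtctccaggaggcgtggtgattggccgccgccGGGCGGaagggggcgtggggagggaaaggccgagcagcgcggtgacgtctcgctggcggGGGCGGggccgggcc
NR1H3: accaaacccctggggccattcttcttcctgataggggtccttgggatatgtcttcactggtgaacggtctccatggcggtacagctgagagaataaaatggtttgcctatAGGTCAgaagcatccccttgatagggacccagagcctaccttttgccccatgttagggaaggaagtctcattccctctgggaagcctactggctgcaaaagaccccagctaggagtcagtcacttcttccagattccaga
NR3C1: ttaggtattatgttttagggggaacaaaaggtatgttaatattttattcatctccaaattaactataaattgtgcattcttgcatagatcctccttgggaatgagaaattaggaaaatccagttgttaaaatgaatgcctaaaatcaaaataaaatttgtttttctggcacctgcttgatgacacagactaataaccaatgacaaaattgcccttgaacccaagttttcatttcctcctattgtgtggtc
The PPARD window held 3 GC boxes and 0 AGGTCA motifs at a GC content of 70.8%, the NR1H3 window 0 GC boxes and 1 AGGTCA motif at 51.6%, and the NR3C1 window neither at 32.8%, where the median over 27305 genes was 57.6%. Of those 27305 windows 42.2% held a GC box and 12.2% an AGGTCA motif. Of the 32 measured receptors with an entry, 17 held a GC box (53.1%) and 5 an AGGTCA motif (15.6%), the latter being RARA, PPARG, NR1H3, RXRG and NR5A2. A match is a description of letters and not of a bound site, and the arrays do not tell which start site was used. The DNA before the other starts of NR1H3 and NR3C1 was not examined and may differ from these windows.

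Among the other receptors for fatty acids, PPARA and PPARG showed no such separation from the spread between arrays. PPARA, the main driver of hepatic fatty acid oxidation, read 1.97 and 1.68 on the control arrays, against 1.67 and 1.67 on the STYK1 arrays. Control replicate 2 lay next to the STYK1 arrays, so the groups were barely parted, and the difference of −0.16 had a standard error of 0.12. PPARG, known for its part in fat storage, read 1.05 and 1.10 on the control arrays, against 1.29 and 0.99 on the STYK1 arrays, with overlapping groups. Of 18 measured PPARA target genes, a list that also holds targets shared with PPAR-delta, 10 were above 0 and 8 below it, and 0 passed the adjusted test or an unadjusted p under 0.05. The smallest unadjusted p-values among those above the floor belonged to ACADVL (difference 0.22), CPT2 (−0.09) and HADHA (0.07). ACADVL starts the oxidation of long fatty acids in mitochondria, CPT2 completes their import there, and HADHA is a subunit of the trifunctional protein.

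The retinoid X receptors, which pair with many of the others, were above background for RXRA and RXRB and under the floor for RXRG. RXRA read 1.46 and 1.59 on the control arrays, against 1.13 and 1.47 on STYK1 replicates 1 and 2. STYK1 replicate 2 lay within the controls, so the difference of −0.23 with a standard error of 0.14 came mainly from STYK1 replicate 1. RXRB has 6 probe sets, of which 2 hold equal values on all arrays, and their differences ran from 0.02 to 0.14. Its brightest probe set read 1.18 and 1.44 on the control arrays, against 1.30 and 1.51 on the STYK1 arrays, with replicate 2 above replicate 1 in both groups.

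Of the retinoic acid receptors, RARA and RARB were above the floor on every array. RARA read 1.21 and 0.88 on the control arrays, against 0.79 and 0.85 on the STYK1 arrays, so that the 2 controls differed from each other by more than the group means did, at −0.22 with a standard error of 0.14. RARB, itself a retinoic acid target in many cells, read 1.12 and 0.81 on the control arrays, against 1.12 and 1.03 on the STYK1 arrays, with overlapping groups. RARG was above the floor on 2 arrays, 1 in each group. Of 13 measured genes that respond to or carry retinoids, 8 were under the floor on every array, among them CYP26A1, which degrades retinoic acid, and 0 had an unadjusted p under 0.05. RDH10, which makes retinal, differed by −0.12, the transglutaminase TGM2 by −0.04 and the retinal reductase DHRS3 by −0.04.

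THRB, the thyroid hormone receptor that predominates in liver, read 4.72 and 4.76 on the control arrays, against 4.72 and 4.59 on the STYK1 arrays. Control replicate 1 and STYK1 replicate 1 lay side by side, so the groups were barely parted, and the difference was −0.09 with a 95% interval of −0.34 to 0.16. Of 9 measured thyroid hormone target genes 0 passed the adjusted test, and 1 had an unadjusted p under 0.05, SHBG, which was under the floor on all 4 arrays and so is given no fold. The count ran from 0, on leaving out STYK1 replicate 1 or control replicate 1, to 2, on leaving out STYK1 replicate 2 or control replicate 2, and was 0 with the filter or the replicate block. DIO1, the deiodinase that converts thyroxine, read 4.03 and 3.71 on the control arrays, against 3.73 and 3.64 on the STYK1 arrays, with overlapping groups. KLF9 differed by −0.11 and ME1, malic enzyme, by 0.10.

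Beside NR1H3, the cholesterol and bile acid axis was represented by NR0B2 and NR5A2. NR0B2, or SHP, lacks a DNA-binding domain and represses other receptors, and it is induced by bile acids through NR1H4. It read 2.22 and 2.59 on the control arrays, against 2.32 and 2.13 on the STYK1 arrays, with overlapping groups. NR5A2, or LRH-1, which SHP represses and which drives bile acid synthesis genes, read 3.74 and 3.48 on the control arrays, against 3.78 and 3.68 on the STYK1 arrays. Its groups overlapped too, because control replicate 1 lay between the STYK1 arrays. LXR target genes were below 0 for 7 of 11 measured members, with a median of −0.07, and 0 had an unadjusted p under 0.05. Among them SMPDL3A, a phosphodiesterase, differed by −0.19, the sterol exporter subunit ABCG8 by −0.28 and LPCAT3, which remodels phospholipids, by −0.09, and of these only SMPDL3A had groups that did not overlap. Another 4 LXR targets were above 0. They included MYLIP (0.18, groups not overlapping) and ABCG5 (0.23), each above the floor on 3 arrays, and SREBF1 (0.05). ABCA1, a cholesterol exporter, read 4.44 and 4.18 on the control arrays, against 4.05 and 4.43 on the STYK1 arrays. Of 16 bile acid genes 6 were under the floor on all arrays, among them the export pump ABCB11 and the uptake carrier SLC10A1. Among the bile acid genes above the floor on all arrays, the smallest unadjusted p-values belonged to CYP27A1 (−0.26), SDC1 (−0.18) and CYP7A1, the rate-limiting enzyme of bile acid synthesis (0.10), and 0 of the 16 had an unadjusted p under 0.05.

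Of the xenobiotic and vitamin D receptors neither had a clear signal. NR1I3, or CAR, which senses drugs together with NR1I2, read 0.80 and 0.83 on the control arrays, against 0.65 and 0.67 on the STYK1 arrays. Both STYK1 values were under the floor. Measured against the floor, or against the reading itself where that was higher, the NR1I3 signal was 1.04-fold higher in the controls. The difference as read, −0.15, had an interval of −0.37 to 0.07, which included 0 (limma, adjusted p = 0.979). No minimum fold can therefore be given for NR1I3. VDR was above the floor on 3 arrays at 0.68 to 0.89. Of 10 measured genes that PXR and CAR induce, CYP3A4 and CYP2C8 were under the floor on every array. ALAS1, which starts heme synthesis, differed by 0.18, the conjugate exporter ABCC2 by 0.14 and POR, which passes electrons to cytochromes P450, by 0.10, each with non-overlapping groups and none at an unadjusted p under 0.05. These had the smallest unadjusted p-values of the list above the floor. On the whole list 5 differences were above 0 and 5 below it. Groups did not overlap for 4 higher and 1 lower, beside 32.9% of all genes. Of the 5 vitamin D genes only CYP24A1, which inactivates vitamin D, was above the floor on all arrays, and it differed by −0.01.

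Among receptors without a required ligand, NR2F6 differed by about as much as NR3C1 and PPARD did, with a wider spread between arrays. NR2F6, or EAR-2, belongs to the COUP-TF group, which mostly represses transcription and competes with other receptors for their sites. It read 5.74 and 5.78 on the control arrays, against 5.25 and 5.57 on STYK1 replicates 1 and 2. Both STYK1 arrays lay below the controls, yet they differed from each other by 0.32, nearly as much as the group means did. The difference was −0.35 (standard error 0.13; limma, adjusted p = 0.979). Leaving out STYK1 replicate 1 took it to −0.19, a move of over 1.5 times, and leaving out STYK1 replicate 2 took it to −0.51. HNF4G, a paralog of HNF4A, read 3.30 and 3.16 on the control arrays, against 3.15 and 3.21 on the STYK1 arrays, and its groups overlapped. Of 12 measured HNF4A target genes 6 lay above 0 and 6 below it, with APOC3 at −0.25, the coagulation factor F7 at 0.23 and FABP1 at −0.09.

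The testicular receptors NR2C1 and NR2C2 showed no separation of the groups. NR2C2, or TR4, read 3.28 and 2.77 on the control arrays, against 2.92 and 3.12 on the STYK1 arrays, so its STYK1 values lay between its controls. NR2C1 read 1.37 and 1.05 on the control arrays, against 1.52 and 1.20 on the STYK1 arrays, with replicate 1 above replicate 2 in both groups. NR2E1 was above the floor on 1 array and NR2E3, a photoreceptor factor, on none.

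NR6A1, or germ cell nuclear factor, which acts in embryonic and germ cells, gave a signal well above the floor in this line. It read 6.37 and 5.81 on the control arrays, against 5.82 and 5.97 on the STYK1 arrays, and control replicate 1 stood above the other 3 arrays. The difference of −0.19 with a standard error of 0.20 was smaller than the gap between the controls, and without control replicate 1 it was 0.08. Its chromosomal neighbour NR5A1, or SF-1, known as a factor of adrenal and gonadal cells, also lay above the floor on every array, at 1.61 and 1.35 on the control arrays, against 1.83 and 1.55 on the STYK1 arrays. NR5A1 and NR6A1 are adjacent protein-coding genes in the RefSeq table of GRCh38.p14.

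Clock receptors were represented by NR1D2, since RORA and RORB were under the floor. NR1D2, or REV-ERB-beta, represses BMAL1 and other clock genes, and it read 2.56 and 2.82 on the control arrays, against 3.08 and 2.60 on the STYK1 arrays. STYK1 replicate 1 was highest, and the groups overlapped. Of 15 measured clock genes 5 were above 0 and 10 below it, with a median of −0.05, and 1 had an unadjusted p under 0.05. This was DBP, an output regulator of the clock, at 2.04 and 2.30 on the control arrays, against 1.75 and 1.88 on the STYK1 arrays (difference −0.36, standard error 0.13; limma, adjusted p = 0.979). The count was 0 when STYK1 replicate 1, STYK1 replicate 2 or control replicate 2 was left out, and 0 with a trend in eBayes or with dim probe sets filtered out. CRY1, a clock repressor, differed by 0.19 and NPAS2, a partner of BMAL1, by −0.19.

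The NR4A receptors, immediate early genes that many stimuli induce, were low and even across the arrays. NR4A1 read 1.05 and 1.13 on the control arrays, against 1.09 and 0.99 on the STYK1 arrays. NR4A2 read 1.37 and 1.31 on the control arrays, against 1.33 and 1.24 on the STYK1 arrays, and NR4A3 was under the floor. Other immediate early genes lay apart in single arrays rather than by group. Their median deviation from each gene's mean was 0.22 and −0.19 on the STYK1 arrays (replicates 1 and 2), against −0.14 and 0.09 on the control arrays, and 0 of 12 had an unadjusted p under 0.05. IER2 differed by 0.24, JUN by 0.23 and EGR1 by 0.17, all with overlapping groups.

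ESRRA, which with PGC-1 coactivators drives mitochondrial genes, read 1.87 and 2.02 on the control arrays, against 2.03 and 1.70 on the STYK1 arrays, with overlapping groups. ESRRB read 0.77 and 0.79 on the control arrays, against 0.54 and 0.61 on the STYK1 arrays, the latter under the floor. Measured against the floor, its signal was 1.02-fold higher in the controls. The difference as read, −0.21, had an interval of −0.43 to 0.02, which included 0 (limma, adjusted p = 0.979). No minimum fold can therefore be given for ESRRB. ESRRG was under the floor. Of 8 measured ESRRA target genes 2 were above 0 and 6 below it, with COX5B at −0.13, MDH2 at −0.11 and IDH3A at −0.10, and 0 had an unadjusted p under 0.05.

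Genes that answer to the glucocorticoid receptor did not separate the groups as NR3C1 did. Of 11 measured members 7 lay above 0 and 4 below it, with a median of 0.06, and 0 had an unadjusted p under 0.05. The phosphatase DUSP1 differed by 0.14 and KLF9 by −0.11. IGFBP1 read 3.71 and 4.98 on the control arrays, against 6.0 and 3.72 on the STYK1 arrays, so its difference of 0.52 had a standard error of 0.85. Of the 6 measured steroid receptor chaperones 5 lay above 0, HSP90AB1 differed by −0.14, HSP90AA1 by 0.11 and the co-chaperone DNAJB1 by 0.12, and 0 had an unadjusted p under 0.05.

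**Figure D3:**
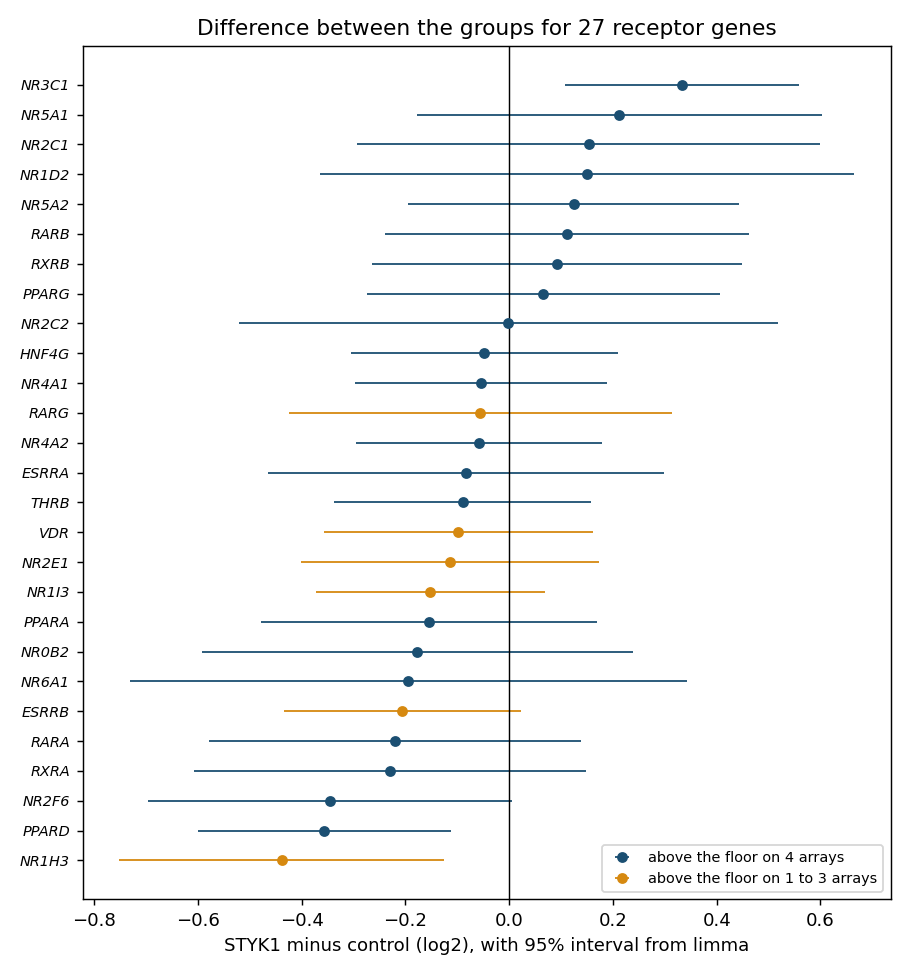
Difference in signal, STYK1 minus control (log2, x axis), with its 95% interval from limma for the 27 receptor genes (y axis) above the floor on at least 1 array. The intervals of NR3C1, PPARD and NR1H3 do not reach 0, before any adjustment for the number of probe sets tested, and those of the other 24 do.

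Coregulators carry the receptors' effect to chromatin, coactivators by acetylating or methylating histones and corepressors by removing such marks. Of 17 measured coactivators 12 were above 0 and 5 below it, with a median of 0.06, and 1 had an unadjusted p under 0.05. This was the arginine methyltransferase CARM1, at 5.91 and 5.87 on the control arrays, against 5.62 and 5.64 on the STYK1 arrays (difference −0.26, standard error 0.08; limma, adjusted p = 0.979). This count of coactivators was 0 on leaving out either STYK1 array or control replicate 1, 0 with an eBayes trend, the filter or the replicate block, and 2 after quantile normalization. NCOA5 differed by −0.25 and the acetyltransferase CREBBP by 0.16, both with groups that did not overlap. PPARGC1A, or PGC-1-alpha, read 0.85 and 1.02 on the control arrays, against 1.04 and 1.22 on the STYK1 arrays. Of 10 measured corepressors 6 were above 0 and 4 below it, and 1 had an unadjusted p under 0.05. This was the deacetylase scaffold SIN3A, at 5.05 and 5.24 on the control arrays, against 4.88 and 4.78 on the STYK1 arrays (difference −0.31, standard error 0.11; limma, adjusted p = 0.979). The count of corepressors was 0 on leaving out either STYK1 array, and 0 with an eBayes trend, the filter or the replicate block. CNOT1 differed by 0.18 and the deacetylase HDAC3 by −0.18.

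Over all 15 pathway lists together, 167 of 189 genes were measured and 0 passed the adjusted test (limma, lowest adjusted p = 0.979). At an unadjusted p under 0.05 there were 1 higher and 3 lower among the 167, beside 1.79% higher and 1.93% lower over all genes. The groups did not overlap for 24.6% of the 167, below the 32.9% of all genes. The median difference of these pathway genes was 0.003, beside 0.002 over all genes.

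**Figure D4:**
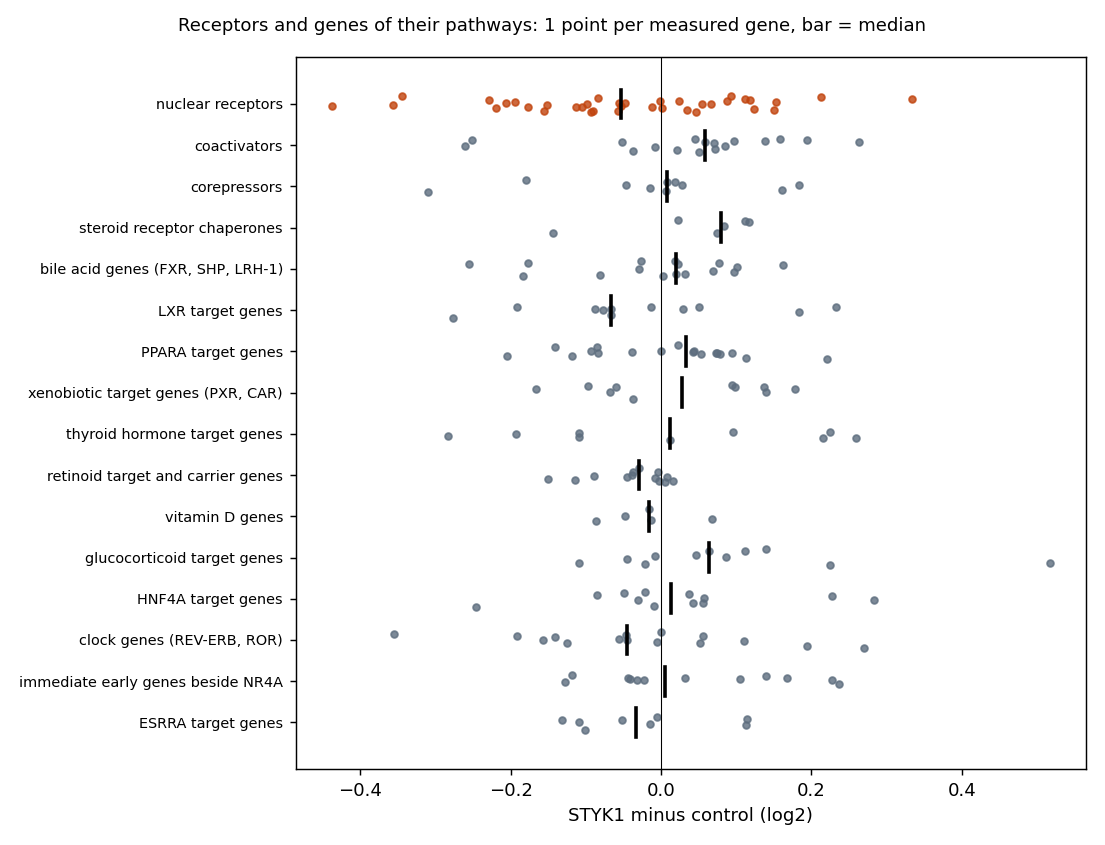
Difference in signal, STYK1 minus control (log2, x axis), for the 37 measured nuclear receptors and for the measured genes of 15 pathway lists (y axis), with 1 point a gene and the median as a bar. Points are shifted vertically at random for legibility. The lists centre near 0, and the glucocorticoid target farthest to the right is IGFBP1 at 0.52.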

How the data were processed

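The authors deposited 1 table of processed values, read as log2 signals, with 53617 probe sets on 4 arrays. It was made with the Transcriptome Analysis Console, per the submitters' processing notes; the summarization, normalization, version and genome build are not stated there. Base 2 was inferred, since natural logarithms would put the brightest probe sets at 82224 to 84779, past the 65535 that a 16-bit scanner can record. Array medians were 0.615 to 0.629 and correlations between arrays 0.985 to 0.987, so nothing was renormalized. Dim differences may be compressed by background handling upstream.

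Samples were grouped by title. Probe sets with exactly 1 gene symbol (23871) were named from the platform annotation, with symbols updated through RefSeq; 1842 with several symbols and 27904 with none here were tested but not named. Groups were compared with limma 3.58.1 (R 4.3.3), using lmFit and eBayes (no trend, two-sided test); p-values were adjusted by the Benjamini-Hochberg method across every probe set, and an adjusted p under 0.05 passed. With so few arrays, the smallest p of an exact permutation test (two-sided) would be 0.333, so none was run. Members, lists, the floor and the naming rule were chosen with earlier results of these data known. All measured receptors are named, and from each list up to 3 genes above the floor on all arrays with the smallest unadjusted p. ALB, KRT19, SOX9, PTPRC, KRT7, CFTR, CD68, CD14, NKG7, COL1A1, PDGFRB and CYP26A1 were added with their values seen. So were ABCB11, SLC10A1, CYP3A4, CYP2C8, SHBG, ABCA1, MYLIP, ABCG5, SREBF1, PPARGC1A and CYP24A1. Alternatives covered moderation, a replicate block, normalization, centring, a filter on dim probe sets, probe set choice, the floor and leaving out each array.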

Additional observations from a re-analysis of the deposited data

How the results depend on the processing

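The count of 0 receptors past the adjusted threshold held in every alternative run (limma, lowest adjusted p = 0.93), with 3 at an unadjusted p under 0.05 in the reported fit. That count was 3 or 4 under the settings that kept all arrays and ran from 0 to 5 when 1 array was left out, where the spread of the remaining group stands for both. The 1 probe set that passed became 0 with the replicate block and 0 without any 1 array; the cause was not tested, and each leaves 1 residual degree of freedom. The replicate numbers are not said to pair the samples, and the correlation between the deviations of arrays with 1 number was −0.044; the block changed no receptor call. Between 19 and 22 receptors lay above the floor, 19 with the 99th percentile as floor, and the median difference of those above it ran from −0.10 to −0.01.

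Of 296 receptor differences recomputed, 280 kept their sign and 16 turned it, over 12 receptors and only by leaving out 1 array. Their ranges over these omissions were ESRRA −0.25 to 0.083, HNF4G −0.12 to 0.025, NR0B2 −0.36 to 0.0072, NR1D2 −0.091 to 0.39, NR2C1 −0.0085 to 0.31, NR2C2 −0.26 to 0.26, NR5A2 −0.0036 to 0.25, NR6A1 −0.47 to 0.083, PPARG −0.085 to 0.22, RARB −0.044 to 0.27, RARG −0.18 to 0.068, RXRB −0.037 to 0.22. None of these had been called. Those of NR3C1, PPARD, NR1H3 and NR2F6 kept their sign in all 11 alternatives. The counts of 0 at an unadjusted p under 0.05 became 1 for the HNF4A and glucocorticoid targets without STYK1 replicate 2, the PPARA targets without control replicate 2, the bile acid genes without control replicate 1, and the immediate early genes without STYK1 replicate 2 or control replicate 2 (limma). Without detection calls, signals near the floor cannot be told from background.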
